A study of Homo sapiens with 4 samples.

Results

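Transcripts of the nuclear genes that encode the mitochondrial respiratory chain were described in JJN3 cells, a human multiple myeloma line, with and without knockdown of the kinase WNK1. Members were the protein-coding genes whose symbols begin with NDUF, SDHA to SDHD, SDHAF, UQCR, UQCC, COX4 to COX8, CYC1 or ATP5, which gave 109 of the 60682 genes in the deposited count table. There were 46 members for complex I, 8 for complex II, 16 for complex III, 19 for complex IV and 20 for complex V. The cells carried a short hairpin RNA against WNK1 (shWNK1, n = 2 libraries) or a hairpin labelled NS (n = 2 libraries), and both groups were JJN3 cells that had been transduced. The labels give 1 hairpin name for WNK1 and do not say whether the replicates came from separate cultures, so the p-values cover only the spread among these 4 libraries, and that spread could be technical.

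The respiratory chain carries electrons from NADH through complex I, or from succinate through complex II, to complex III and then to complex IV, where oxygen is reduced. Protons moved by complexes I, III and IV drive complex V, the ATP synthase. Most subunits are encoded in the nucleus and a small core is encoded in mitochondrial DNA, and assembly factors join the parts without staying in the finished complex. Myeloma cells are plasma cells that secrete large amounts of protein, and respiration is one of their sources of ATP.

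The libraries held 16973521 and 20164122 counts for shWNK1, against 17491537 and 17392619 for NS. At these depths 3 counts in a library were 0.172 and 0.146 CPM (counts per library size, as scaled by edgeR's TMM factors) for shWNK1, and 0.176 and 0.177 CPM for NS. WNK1 itself had 18.6 and 19.6 CPM in shWNK1 cells, against 288 and 245.1 CPM in NS cells (log2 fold change -3.80, SE 0.085, edgeR adjusted p = 4.2e-25), so WNK1 was low in both libraries labelled shWNK1. Plasma cell markers were present, and 2 of the 7 rose and 4 fell, among them SDC1 (syndecan-1, log2 -1.32), the only marker called when shWNK1 replicate 1 was left out. Of 9 markers of other cells, CD3D, HBB, LYZ and MS4A1 were at 0 in all 4 libraries, and the markers other than EPCAM did not reach the filter on low counts. The epithelial marker EPCAM had 120.4 and 126.0 CPM in shWNK1 cells, against 109.1 and 119.3 CPM in NS cells. Its part in the results below was not tested.

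Of the 109 members, 99 passed the filter and were tested together with all genes (14864 in all). The 31 members that fell in shWNK1 cells made up 31.3% of those tested, beside 20.2% of all genes tested, and the 5 that rose made up 5.05%, beside 18.5% of all genes. In either direction 36 of the 99 tested members were called, a share near the 38.8% of all genes. The other 63 did not pass the threshold (edgeR's quasi-likelihood test, Benjamini-Hochberg adjusted p under 0.05 over all genes). In bulk RNA, fewer cells with a transcript and less of it per cell cannot be told apart. The median log2 fold change was -0.13 over the tested members and 0.01 over all tested genes. Both shWNK1 libraries lay below both NS libraries in 43 members (43.4%, beside 33.7% of all genes) and above both in 11 (11.1%, beside 34.7%). Summed over all members, the level was 10221 and 10182 CPM in shWNK1 cells, against 10669 and 11898 CPM in NS cells, a ratio of 0.904. The shWNK1 libraries lay close together, and the NS libraries lay further from each other than the lower NS library did from either shWNK1 library.

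The counts of calls depended on the NS libraries. A fit with an NS library left out takes its spread from the shWNK1 libraries. Its calls and p-values therefore do not measure the spread between the NS libraries. Without NS replicate 1, 5 members rose and 54 fell, and the median was -0.27, beside 18.4% and 20.6% of all genes rising and falling. Without NS replicate 2, 13 members rose and 21 fell, and the median was -0.03, beside 18.7% and 19.6% of all genes. Omitting shWNK1 replicate 1 left 3 members higher and 19 lower (all genes 11.5% and 14.3%), and omitting shWNK1 replicate 2 left 2 higher and 21 lower (all genes 11.4% and 14.1%). DESeq2 called 3 rises and 26 falls (all genes 13.4% and 16.4%), upper-quartile factors 6 and 29 (all genes 21.2% and 18%), and the fit with no filter on low counts 5 and 33 (all genes 8.89% and 10.4%). Called in the same direction under every setting tried were COX7C, which rose, and 13 members that fell. These were NDUFAB1, NDUFB6, NDUFS6, NDUFAF2, NDUFAF8, SDHD, CYC1, UQCC5, COX6A1, ATP5F1D, ATP5MC3, ATP5ME and ATP5PB.

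**Figure D1:**
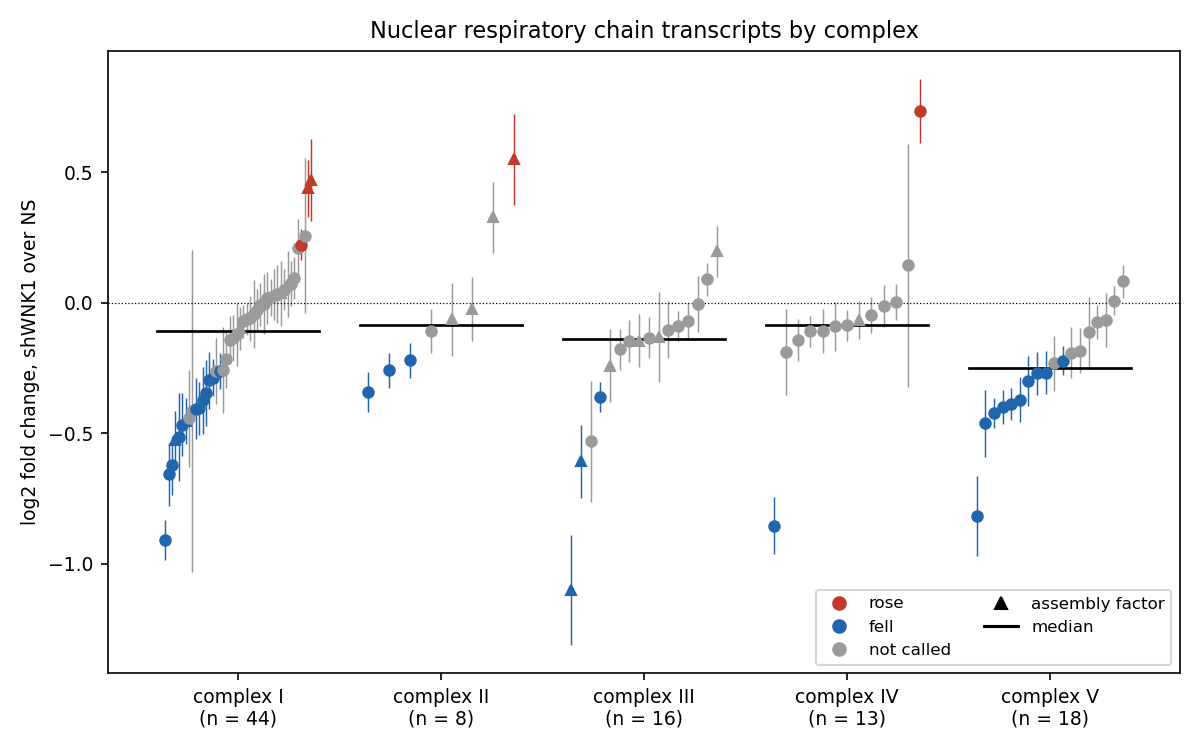
Log2 fold change of each tested member, shWNK1 over NS, ordered within complexes I to V. Points are fitted values from 2 libraries a group, bars are 1 SE on either side, triangles are assembly factors, black lines are medians, and colour gives the call; complex V has the lowest median, -0.25.

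Complex I takes electrons from NADH through its peripheral arm and pumps protons through its membrane arm. Of its 44 tested members, 3 rose, 14 fell and 27 were not called, with a median of -0.11. The rises made up 6.82% and the falls 31.8%, beside 18.5% and 20.2% of all genes. Without shWNK1 replicate 1 there were 7 falls, and without NS replicate 2 there were 8 rises and 8 falls, while no rise was called without shWNK1 replicate 2. The core subunits and the accessory subunits gave different counts, a difference that was not tested. Of the 7 nuclear core subunits, which hold the flavin, the iron-sulfur clusters and the quinone site, none fell, with a median of 0.07. Of the 29 tested accessory subunits, which surround the core, none rose and 12 fell (41.4%, beside 20.2% of all genes), with a median of -0.26. At an unadjusted p under 0.05, with DESeq2 and with limma-voom, there was likewise no core subunit that fell and no accessory subunit that rose. Without NS replicate 2, however, the accessory subunits NDUFA5 (log2 0.22, edgeR adjusted p = 0.0219), NDUFA6 (log2 0.20, edgeR adjusted p = 0.0259) and NDUFB9 (log2 0.22, edgeR adjusted p = 0.0018) rose. The accessory subunits also had shorter transcripts, with a median of 761 bases against 1039 bases for the core subunits, and the part of length in the difference was not tested.

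NDUFAB1, the mitochondrial acyl carrier protein and also a subunit of complex I, lies at chr16:23581014-23596316 (hg38) and had 74.2 and 66.6 CPM in shWNK1 cells, against 126.2 and 138.2 CPM in NS cells. Both shWNK1 libraries were below both NS libraries, and the level was 1.88-fold lower (log2 -0.91, SE 0.076, edgeR adjusted p = 1.9e-11). NDUFB6, an accessory subunit of the membrane arm, had 23.8 and 23.7 CPM in shWNK1 cells, against 33.4 and 39.9 CPM in NS cells (log2 -0.62, SE 0.113, edgeR adjusted p = 4.0e-05). NDUFS6, a zinc-binding subunit of the peripheral arm, had 123.6 and 137.1 CPM in shWNK1 cells, against 177.1 and 234.7 CPM in NS cells. The NS libraries differed more than the shWNK1 libraries here, and the groups did not overlap (log2 -0.66, SE 0.121, edgeR adjusted p = 0.0023).

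NDUFA11, another subunit of the membrane arm, had 9.12 and 10.2 CPM in shWNK1 cells, against 11.8 and 15.8 CPM in NS cells (log2 -0.52, edgeR adjusted p = 0.0154). That call was lost without NS replicate 2 (log2 -0.29, adjusted p = 0.259), without shWNK1 replicate 1 (adjusted p = 0.148), without shWNK1 replicate 2 (adjusted p = 0.0521) and with DESeq2 (adjusted p = 0.0717). NDUFA11 shares 67% of its main transcript with other annotated genes. The abundant NDUFS5 had 136.1 and 139.8 CPM in shWNK1 cells, against 152.6 and 178.1 CPM in NS cells (log2 -0.26, edgeR adjusted p = 0.0032), and lost the call without NS replicate 2 (adjusted p = 0.0661) or shWNK1 replicate 1 (adjusted p = 0.0819). NDUFA3 had 25.5 and 28.1 CPM in shWNK1 cells, against 28.97 and 40.7 CPM in NS cells (log2 -0.37, edgeR adjusted p = 0.0211). Without NS replicate 2 its log2 value was -0.11 (adjusted p = 0.539), and its call was also lost without shWNK1 replicate 1 (adjusted p = 0.191), without shWNK1 replicate 2 (adjusted p = 0.055) and with DESeq2 (adjusted p = 0.072).

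Among the core subunits, the flavin-bearing NDUFV1 was at 237.2 and 238.7 CPM in shWNK1 cells, against 237.6 and 259.1 CPM in NS cells, and was not called (log2 -0.06). NDUFS1, which carries iron-sulfur clusters, was at 189.1 and 178 CPM in shWNK1 cells, against 200.1 and 185.3 CPM in NS cells, with overlapping groups (log2 -0.07).

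The assembly factors of complex I moved in both directions, with 2 of 8 higher and 2 lower (25% each, beside 18.5% and 20.2% of all genes). NDUFAF2, a late assembly factor, had 24.02 and 28.1 CPM in shWNK1 cells, against 35.7 and 39.5 CPM in NS cells (log2 -0.53, SE 0.111, edgeR adjusted p = 2.6e-04). NDUFAF8 had 50.2 and 54.8 CPM in shWNK1 cells, against 66.1 and 77.9 CPM in NS cells (log2 -0.45, SE 0.089, edgeR adjusted p = 1.1e-04). Its partner NDUFAF5, an enzyme that hydroxylates the core subunit NDUFS7, went the other way. NDUFAF5 had 13.5 and 15.1 CPM in shWNK1 cells, against 10.2 and 10.5 CPM in NS cells (log2 0.47, SE 0.157, edgeR adjusted p = 0.0169; 0.205 without shWNK1 replicate 2 and 0.0797 with DESeq2). NDUFAF6 had 34.6 and 40.7 CPM in shWNK1 cells, against 27.2 and 28.5 CPM in NS cells (log2 0.44, SE 0.109, edgeR adjusted p = 0.0016; 0.122 without shWNK1 replicate 2). Outside the members, 8 further complex I assembly factors were tested and 3 fell, beside 20.2% of all genes. These included TMEM126B (log2 -0.70, edgeR adjusted p = 5.8e-08) and TMEM126A (log2 -0.48, edgeR adjusted p = 3.8e-04). The other, NUBPL (log2 -0.50), lost its call without NS replicate 2 (adjusted p = 0.0777) or shWNK1 replicate 2 (adjusted p = 0.109). FOXRED1, not called with all 4 libraries (log2 0.23), rose without NS replicate 2 (adjusted p = 0.0191), with upper-quartile factors (adjusted p = 0.0344) and with an offset on transcript length described below (adjusted p = 0.0406).

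Complex II, succinate dehydrogenase, has 4 subunits that are all encoded in the nucleus. All 4 were lower in both shWNK1 libraries than in both NS libraries, beside 33.7% of all genes, and 3 of them fell, beside 20.2%. This rests on 4 genes, and the calls of SDHB and SDHC did not hold with every library left out. SDHA was separated only narrowly, at 59.5 CPM in shWNK1 replicate 1 against 59.8 CPM in NS replicate 1. Its level is uncertain, as described below. The membrane anchor SDHD had 77.4 and 72.0 CPM in shWNK1 cells, against 90.2 and 99.2 CPM in NS cells (log2 -0.34, SE 0.077, edgeR adjusted p = 5.8e-04), and shares 22.2% of its main transcript with another annotated gene. The iron-sulfur subunit SDHB had 115.6 and 112.6 CPM in shWNK1 cells, against 135.7 and 137.4 CPM in NS cells (log2 -0.26, edgeR adjusted p = 0.0021; 0.0686 without shWNK1 replicate 2). The other anchor, SDHC, had 120.6 and 119.9 CPM in shWNK1 cells, against 133.6 and 146.7 CPM in NS cells (log2 -0.22, edgeR adjusted p = 0.0095). Its adjusted p was 0.0649 without NS replicate 2, 0.0984 without shWNK1 replicate 1 and 0.111 without shWNK1 replicate 2.

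The catalytic subunit SDHA had 59.5 and 57.8 CPM in shWNK1 cells, against 59.8 and 66.5 CPM in NS cells, and was not called (log2 -0.11). It shares 79.2% of its main transcript with another annotated gene, and its 4 named pseudogenes held 634 and 810 counts in shWNK1 cells, against 639 and 666 in NS cells, so its level is uncertain. Of the 4 assembly factors of complex II, SDHAF4, which binds SDHA during assembly, rose. SDHAF4 had 12.9 and 11.0 CPM in shWNK1 cells, against 7.80 and 8.45 CPM in NS cells (log2 0.55, SE 0.175, edgeR adjusted p = 0.0121; 0.187 without shWNK1 replicate 1 and 0.0624 with DESeq2). Summed over complex II, the level was 448.1 and 435.9 CPM in shWNK1 cells, against 487 and 517.7 CPM in NS cells.

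Complex III passes electrons from ubiquinol to cytochrome c. None of its 16 members rose, 3 fell and 13 were not called, with a median of -0.14. The falls made up 18.8%, beside 20.2% of all genes, and 18.5% of all genes rose. No member rose at an unadjusted p under 0.05, with DESeq2 or with limma-voom, and there were 8 falls without NS replicate 1 and 1 rise without NS replicate 2. CYC1, cytochrome c1, is the haem subunit encoded in the nucleus and had 434.5 and 447.7 CPM in shWNK1 cells, against 550.4 and 583.2 CPM in NS cells (log2 -0.36, SE 0.057, edgeR adjusted p = 4.9e-06). The gap between the groups was several times the gap within either. UQCRFS1, the Rieske iron-sulfur protein, had 98.3 and 98.1 CPM in shWNK1 cells, against 101.2 and 105.1 CPM in NS cells, and was not called (log2 -0.07). With all 4 libraries and the filter on low counts, none of the 8 accessory subunits was called in either direction by edgeR, DESeq2 or limma-voom. At an unadjusted p under 0.05, 2 were lower, UQCRH and UQCRHL. With no filter on low counts UQCRH was called as falling (log2 -0.19, edgeR adjusted p = 0.0147).

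The assembly factor UQCC5 (chr3:52534013-52579237) had the largest fall of the tested members, with 4.07 and 4.52 CPM in shWNK1 cells, against 8.97 and 9.52 CPM in NS cells. It was 2.14-fold lower (log2 -1.10, SE 0.211, edgeR adjusted p = 7.9e-05), and rested on 71 and 93 counts in shWNK1 cells, against 153 and 161 in NS cells. UQCC3, which acts on newly made cytochrome b, had 16.6 and 13.3 CPM in shWNK1 cells, against 20.9 and 24.6 CPM in NS cells (log2 -0.61, edgeR adjusted p = 7.6e-04; 0.0595 without shWNK1 replicate 2). UQCC3 shares 30.6% of its main transcript with LBHD1.

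The electron carrier between complexes III and IV, CYCS (cytochrome c), is outside the rule and fell as well. CYCS had 427.3 and 412.5 CPM in shWNK1 cells, against 661.2 and 728.2 CPM in NS cells (log2 -0.73, SE 0.059, edgeR adjusted p = 1.0e-11). Its call held under every setting tried. Per length, CYCS was the more abundant of CYCS and CYC1 in every library, at 895.2 and 858.8 TPM (levels per transcript length, over protein-coding genes) in shWNK1 cells, against 1304 and 1385 TPM in NS cells, while CYC1 was at 715 and 732.1 TPM in shWNK1 cells, against 852.8 and 871.6 TPM in NS cells.

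Complex IV, cytochrome c oxidase, had the fewest called members, with 11 of 13 tested not called. It had 1 rise and 1 fall (7.69% each, beside 18.5% and 20.2% of all genes). Its median was -0.09. COX7C (chr5:86617928-86620962), a small subunit of the membrane part, had 149.0 and 139.8 CPM in shWNK1 cells, against 72.9 and 100.5 CPM in NS cells. It was 1.66-fold higher (log2 0.73, SE 0.122, edgeR adjusted p = 7.8e-04), with both shWNK1 libraries above both NS libraries. COX6A1 (chr12:120438090-120440737), the subunit 6A form found in most tissues, went the other way. It had 32.3 and 33.5 CPM in shWNK1 cells, against 51.0 and 68.0 CPM in NS cells, and was 1.81-fold lower (log2 -0.86, SE 0.109, edgeR adjusted p = 3.4e-07). COX6A1 shares 30.6% of its main transcript with an overlapping annotated gene.

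COX4I1 and COX5A, with the highest levels per length in complex IV, were close between the groups. COX4I1 was at 364 and 360.3 CPM in shWNK1 cells, against 369.9 and 411.4 CPM in NS cells (log2 -0.11, not called; adjusted p = 0.0019 without NS replicate 1). COX5A was at 268.8 and 270.5 CPM in shWNK1 cells, against 278 and 295 CPM in NS cells (log2 -0.09, not called). COX8A was at 96.7 and 100.2 CPM in shWNK1 cells, against 92.1 and 132.7 CPM in NS cells, so that the shWNK1 libraries lay between the NS libraries. With no filter on low counts COX8A was called as falling (log2 -0.20, edgeR adjusted p = 0.0483). Without NS replicate 1, COX8A was at log2 -0.43 and the median of complex IV was -0.17. Without NS replicate 2 the median of complex IV was 0.04.

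The tissue-restricted forms of complex IV were at or near 0. COX4I2 and COX6A2 had no count in any library. COX6B2, COX7A1, COX7B2 and COX8C had at most 3 counts in any library, while their partners COX6B1, COX7A2, COX7B and COX8A were at 72.6 CPM or more in every library. NDUFA4, now counted as a complex IV subunit, had 249.3 and 240 CPM in shWNK1 cells, against 220.9 and 267.3 CPM in NS cells (log2 0.00; without NS replicate 2 it was called as rising, log2 0.15, edgeR adjusted p = 0.0322). Its relative NDUFA4L2 had 1.89 and 1.75 CPM in shWNK1 cells, against 2.46 and 0.827 CPM in NS cells. COX7A2L, which helps to join complexes III and IV, was at 109.9 and 111.2 CPM in shWNK1 cells, against 107.3 and 124.4 CPM in NS cells (log2 -0.07, not called; adjusted p = 0.0412 without NS replicate 1).

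Assembly of complex IV depends on many factors outside the rule, and 22 of these were tested. None rose (edgeR, also at an unadjusted p under 0.05 and with DESeq2) and 4 of the 22 fell, beside 18.5% and 20.2% of all genes rising and falling. The 2 falls with the smallest p were COX17, a copper chaperone (log2 -0.58, edgeR adjusted p = 1.6e-04), and COX11, which also serves the copper site (log2 -0.42, edgeR adjusted p = 6.8e-04). Without NS replicate 2 the other falls, CMC1 (adjusted p = 0.101) and COA8 (adjusted p = 0.153), were lost and SURF1 rose (log2 0.37, adjusted p = 0.044), whereas without NS replicate 1 COA6 fell (log2 -0.43, adjusted p = 0.0126). COA8 also lost its call without shWNK1 replicate 2 (adjusted p = 0.171) and with DESeq2 (adjusted p = 0.0562), and CMC1 without shWNK1 replicate 1 (adjusted p = 0.0669). The assembly factors outside the rule for complexes III and V, 3 each, had no call in either direction (3 of 3 not called for each, edgeR), and at an unadjusted p under 0.05 only LYRM7 passed (0.0198, log2 -0.19). LYRM7 was called with RLE factors, with limma-voom, under the 1 CPM filter and without NS replicate 2.

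Complex V, the ATP synthase, had the highest share of falls among the complexes. Of 18 tested members, none rose, 10 fell (55.6%, beside 20.2% of all genes) and 8 were not called, with a median of -0.25. No member rose at an unadjusted p under 0.05, with DESeq2 or with limma-voom, and the falls numbered 6 when shWNK1 replicate 1 was left out, 7 for NS replicate 2 and 15 for NS replicate 1. The tested members of complex V had a median transcript of 734.5 bases, and 31.4% of all genes above 600 and up to 800 bases fell. With the offset on transcript length described below, 1 member of complex V rose and 7 fell, beside 19.6% and 21.2% of all genes. Both shWNK1 libraries lay below both NS libraries in 12 of the 18, or 66.7%, beside 33.7% of all genes. With all 4 libraries, falls were found in every part of the enzyme. Of the F1 head 3 of 5 fell, of the peripheral stalk 2 of 4, of the c-ring genes 2 of 3 and of the small membrane subunits 2 of 5, and the inhibitor ATP5IF1 also fell. Only ATP5F1D, ATP5PB, ATP5MC3 and ATP5ME among these kept their calls under every setting tried, so the fall of the inhibitor did not. The membrane subunit ATP5MK was at log2 -0.14 without NS replicate 2 and -0.12 with the length offset.

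In the F1 head, the catalytic subunit ATP5F1B was the most abundant member per length in shWNK1 cells, with 1190 and 1185 TPM in shWNK1 cells, against 1104 and 1087 TPM in NS cells. In CPM it was level, at 1072 and 1075 in shWNK1 cells, against 1057 and 1079 in NS cells (log2 0.01, SE 0.055, not called). ATP5F1A, its partner in the hexamer, had 715.5 and 745.5 CPM in shWNK1 cells, against 861.4 and 842.7 CPM in NS cells (log2 -0.22, SE 0.056, edgeR adjusted p = 0.0017; 0.121 without shWNK1 replicate 1). ATP5F1D, the delta subunit of the central stalk, had 188.9 and 185.4 CPM in shWNK1 cells, against 234.7 and 255.5 CPM in NS cells (log2 -0.39, SE 0.062, edgeR adjusted p = 5.4e-06).

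ATP5PB, the b subunit of the peripheral stalk, had 348 and 346.5 CPM in shWNK1 cells, against 451.5 and 478.3 CPM in NS cells (log2 -0.42, SE 0.057, edgeR adjusted p = 4.2e-07). ATP5ME, a small membrane subunit, had 11.4 and 10.2 CPM in shWNK1 cells, against 16.6 and 21.4 CPM in NS cells (log2 -0.82, SE 0.154, edgeR adjusted p = 6.5e-05). ATP5ME shares 49.9% of its main transcript with MYL5, and reads in that stretch could not be told apart.

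The genes ATP5MC1, ATP5MC2 and ATP5MC3 encode the same mature c subunit of the rotating ring. ATP5MC3 had 153.5 and 145.8 CPM in shWNK1 cells, against 187.5 and 207 CPM in NS cells (log2 -0.40, SE 0.065, edgeR adjusted p = 8.2e-06). ATP5MC2 had 164.7 and 162.3 CPM in shWNK1 cells, against 151.1 and 157.7 CPM in NS cells, and was not called (log2 0.08). ATP5MC1 had 81.9 and 80.2 CPM in shWNK1 cells, against 87.8 and 107.7 CPM in NS cells (log2 -0.27, edgeR adjusted p = 0.0094), and lost its call without NS replicate 2 (adjusted p = 0.259), shWNK1 replicate 1 (adjusted p = 0.0732) or shWNK1 replicate 2 (adjusted p = 0.108). Summed over the 3 genes, the level was 400 and 388.3 CPM in shWNK1 cells, against 426.4 and 472.4 CPM in NS cells. ATP5IF1, which blocks the enzyme from running in reverse, had 67.5 and 63.2 CPM in shWNK1 cells, against 70.1 and 90.9 CPM in NS cells (log2 -0.30, edgeR adjusted p = 0.0129), and lost its call without NS replicate 2 (log2 -0.10, adjusted p = 0.378) or shWNK1 replicate 2 (adjusted p = 0.158).

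**Figure D2:**
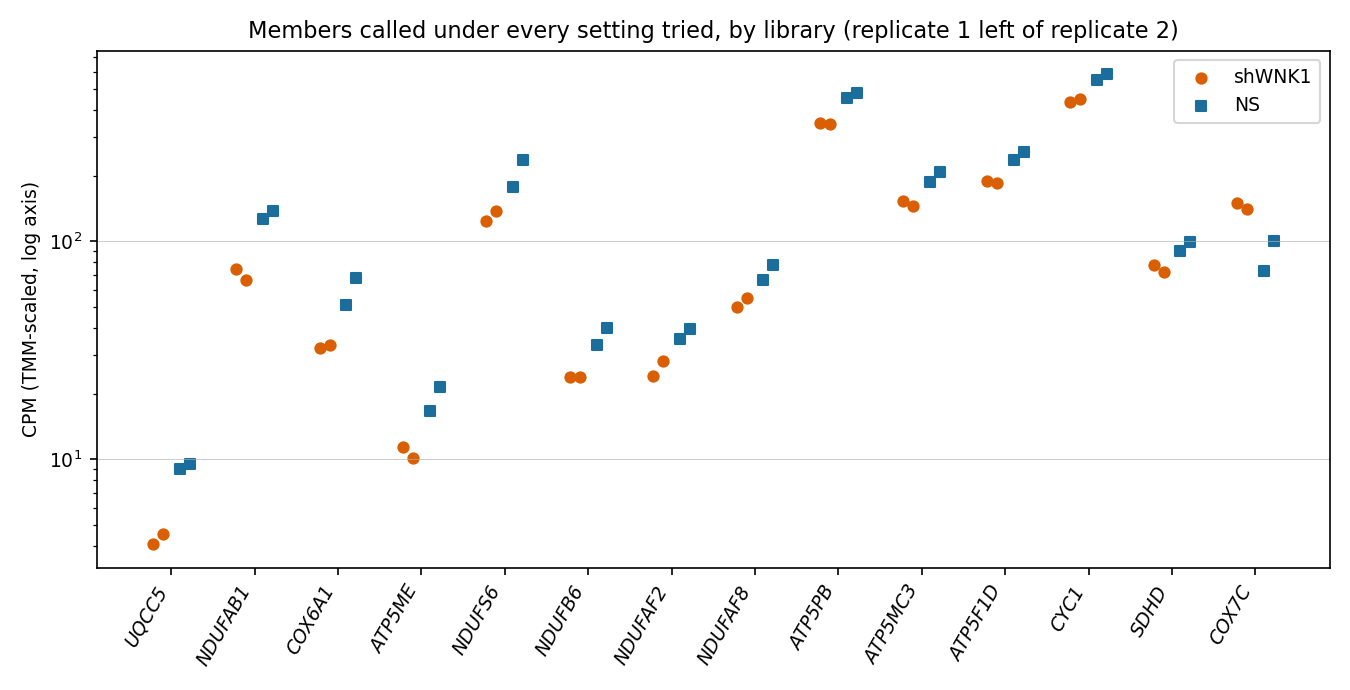
CPM (log axis) of the 14 members called in the same direction under every setting tried, with each library as a point, shWNK1 left of NS. COX7C lies higher in both shWNK1 libraries, at 149.0 and 139.8 CPM, and the other 13 lie lower.

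Assembly factors over all complexes gave 3 rises (15.8%) and 4 falls (21.1%) of 19, with a median of -0.06. The subunits with the inhibitor gave 2 rises (2.5%) and 27 falls (33.8%) of 80, with a median of -0.14. Over all genes the shares were 18.5% and 20.2%. The assembly factors also had longer transcripts, with a median of 1117 bases against 751.5 bases for the subunits. The difference between the roles was not tested.

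The difference between the NS libraries was wide among the members. NS replicate 2 had a higher CPM than NS replicate 1 in 90 of the 99 tested members (90.9%), beside 49.5% of all tested genes, and the median log2 ratio was 0.21. shWNK1 replicate 2 was above shWNK1 replicate 1 in 45 members (45.5%), beside 50.1% of all genes, with a median of -0.01. By complex the median NS ratio was 0.19 for complex I, 0.13 for II, 0.23 for III, 0.27 for IV and 0.25 for V. Among members with a mean of at least 5 CPM, the largest NS differences belonged to NDUFB3 (log2 0.58), COX8A (0.53), NDUFA1 (0.50), NDUFA3 (0.49) and ATP5MF (0.48). NDUFB3 had 29.6 and 23.5 CPM in shWNK1 cells, against 25.4 and 37.9 CPM in NS cells, and NDUFA1 had 30.1 and 33.1 CPM in shWNK1 cells, against 31.4 and 44.5 CPM in NS cells. NDUFA3 aside, each of these was uncalled with all 4 libraries and the filter on low counts. Without NS replicate 1 their log2 values were -0.52 for NDUFB3, -0.43 for COX8A, -0.49 for NDUFA1 and -0.34 for ATP5MF.

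The NS ratio moved with transcript length over the whole table. For all tested genes, the median log2 ratio of NS replicate 2 over NS replicate 1 was 0.23 for transcripts of up to 600 bases (162 genes), 0.15 for those above 600 and up to 800 bases, 0.07 above 1000 and up to 1500 bases and -0.06 over 3000 bases (4832 genes). The same medians for the shWNK1 libraries stayed between -0.01 and 0.01. The members are short, with a median coding transcript of 791 bases against 2572 for all tested genes, and 24 of them are at most 600 bases long. Within the members the NS ratio was 0.31 in the shortest class and 0.05 over 3000 bases, where there were 4 members. As a description across genes, which are not independent and share the same libraries, Spearman's rho with length was -0.53 for the NS ratio and -0.03 for the shWNK1 ratio over 99 members, and -0.29 and 0.04 over 11881 genes with a length.

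**Figure D3:**
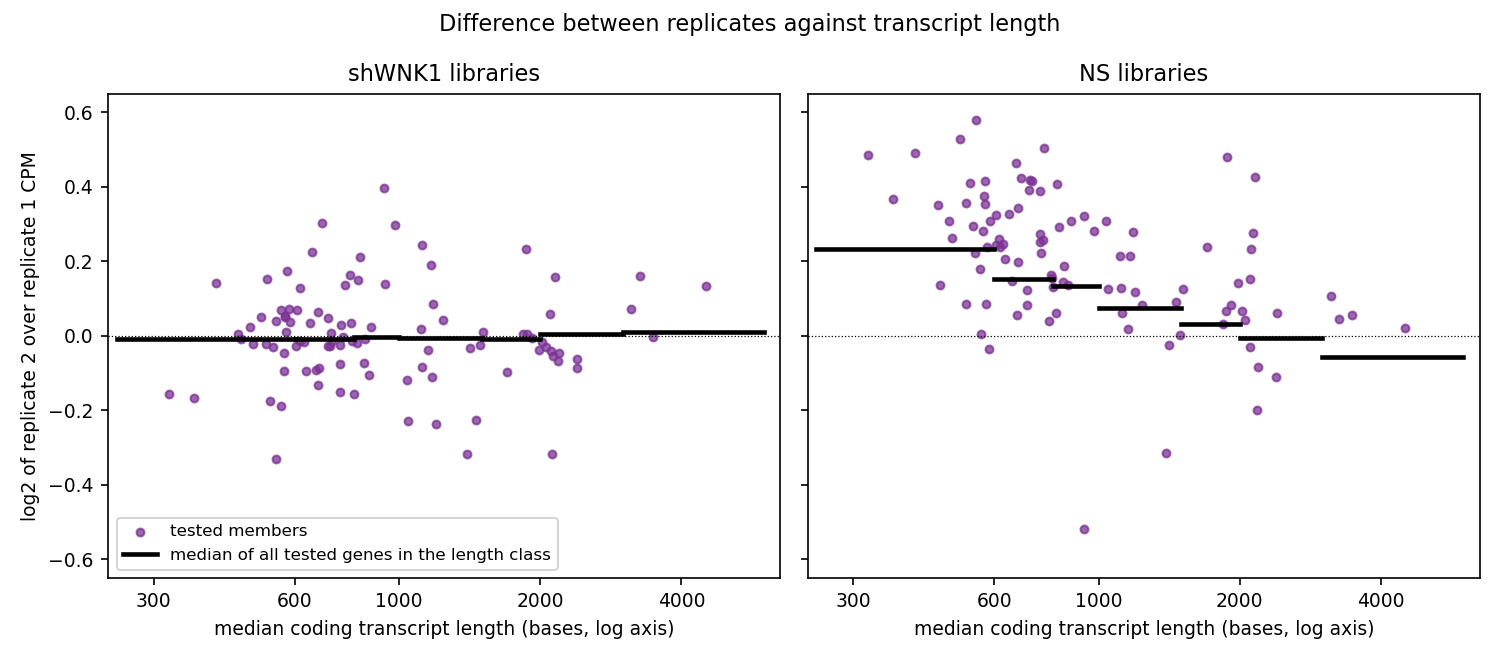
Log2 ratio of replicate 2 over replicate 1 in CPM (vertical axis) against median coding transcript length in bases (log axis) for the shWNK1 libraries and the NS libraries. Points are tested members and black bars the medians of all tested genes by length class, which run between 0.23 and -0.06 for NS and stay near 0 for shWNK1; NDUFA4L2, at -1.57 in NS, lies off the axis.

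The fold change also went with length, weakly over all genes (Spearman's rho 0.09) and more among the members (0.36). Its median was -0.19 for all tested genes of up to 600 bases and 0.04 for those over 3000 bases. The members' medians were -0.24 in the shortest class, -0.13 above 600 and up to 800 bases, beside -0.13 for all genes of that class, and -0.24 above 800 and up to 1000 bases, beside -0.11 for all genes. Of the members up to 600 bases, 12 of 24 fell (50%), beside 33.3% of all genes of that length. Above 600 and up to 800 bases 8 of 27 fell (29.6%), beside 31.4% of all genes. Above 800 and up to 1000 bases 4 of 11 fell (36.4%), beside 30.7%. A fit with an offset that removes the trend with transcript length in each library was added after these values were seen. Such an offset also removes any difference between the groups that goes with length, whatever its source. For all genes of up to 600 bases the median was -0.02 with it. The fit gave 9 rises and 22 falls among the members, with a median of -0.02, beside 19.6% and 21.2% of all genes rising and falling. In that fit all 5 rises and 22 of the 31 falls were called again, and the calls of NDUFA3, NDUFA12, NDUFB7, NDUFS4, NDUFS5, SDHC, ATP5IF1, ATP5MC1 and ATP5MK were lost. The new rises were NDUFS7, NDUFS8, SDHAF2 and ATP5MC2, which lay at log2 0.29, 0.24, 0.49 and 0.19.

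By complex, the median without NS replicate 1 was -0.17 for complex I, -0.13 for II, -0.29 for III, -0.17 for IV and -0.39 for V. Without NS replicate 2 it was -0.0065 for complex I, -0.09 for II, 0.0028 for III, 0.04 for IV and -0.11 for V. With the length offset it was -0.01 for complex I, -0.03 for II, -0.03 for III, 0.04 for IV and -0.13 for V. Complex V had the lowest median with all 4 libraries and in each of these 3 fits, and complexes III and IV were above 0 in at least 1 of them. NDUFB9, an abundant accessory subunit of complex I, was called in opposite directions by the NS libraries. It had 183.2 and 173.9 CPM in shWNK1 cells, against 152.8 and 199.9 CPM in NS cells (log2 0.02, not called), and was at log2 -0.16 without NS replicate 1 (edgeR adjusted p = 0.0207) and 0.22 without NS replicate 2 (edgeR adjusted p = 0.0018).

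**Figure D4:**
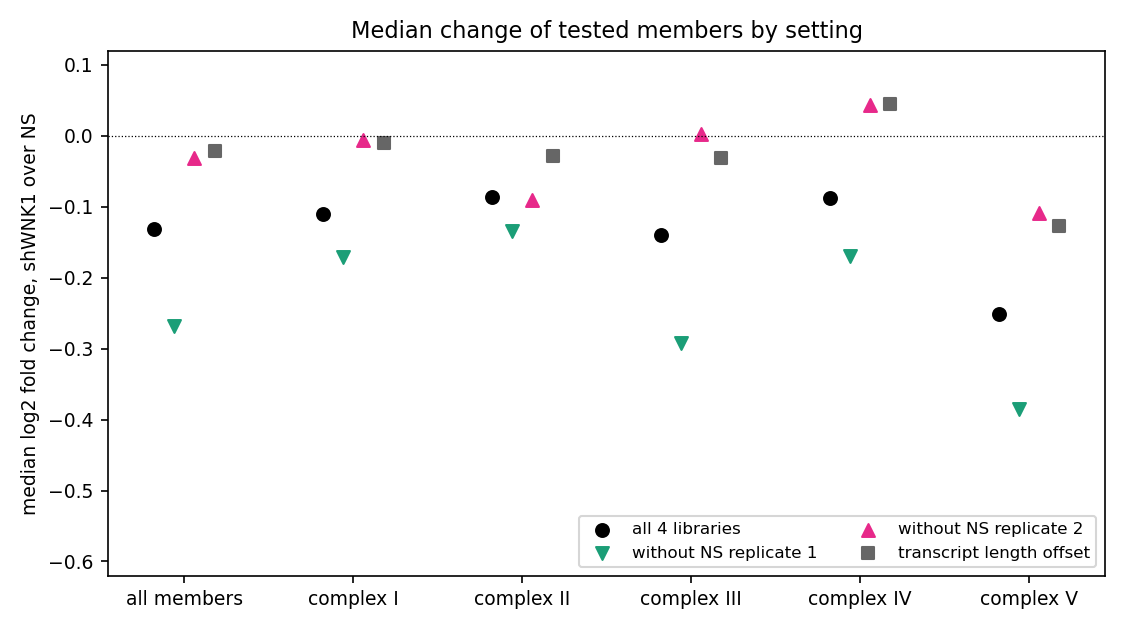
Median log2 fold change (shWNK1 over NS) of tested members, in all and by complex, with all 4 libraries, without each NS library and with the transcript length offset. Complex V stays below 0 throughout, from -0.39 to -0.11, and complex IV lies at -0.17 without NS replicate 1 and 0.04 without NS replicate 2.

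The mitochondrially encoded subunits had no common direction, with a median log2 fold change of -0.0024, beside -0.13 for the tested members. Their 13 transcripts summed to 46485 and 47873 CPM in shWNK1 cells, against 45335 and 41959 CPM in NS cells, a ratio of 1.08. Of the 13, 2 rose, 2 fell and 9 were not called, beside 18.5% and 20.2% of all genes rising and falling. The 2 that rose, MT-CO1 and MT-ND4, had the highest levels and weigh most in the sum. MT-CO1 had 13170 and 13705 CPM in shWNK1 cells, against 11726 and 10536 CPM in NS cells (log2 0.27, edgeR adjusted p = 3.2e-04; 0.0817 without shWNK1 replicate 2), and MT-ND4 rose by a like amount (log2 0.27, edgeR adjusted p = 4.0e-04). Without NS replicate 2, MT-ATP6, MT-ATP8 and MT-CO3 were also called as falling and MT-ND4L as rising, and without NS replicate 1 MT-ND5 was called as rising. With the transcript length offset MT-CO2 (log2 0.18), MT-ND4L (0.35), MT-ND5 (0.15) and MT-ND6 (0.26) were called as rising too. MT-ND3, one of the shortest, fell (log2 -0.53, edgeR adjusted p = 0.0016). MT-CYB was at the threshold (log2 -0.15, edgeR adjusted p = 0.0494), and lost its call in 9 of the alternatives, including without shWNK1 replicate 1 (adjusted p = 0.505), shWNK1 replicate 2 (adjusted p = 0.126) or NS replicate 1 (adjusted p = 0.245).

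Most of the tested regulators of the respiratory chain fell. NRF1 and GABPA bind the promoters of many members, YY1 is another promoter-binding factor, and TFAM packages and transcribes mitochondrial DNA. Of 6 tested, 4 fell and 1 rose, beside 20.2% and 18.5% of all genes. GABPA had 20.0 and 20.4 CPM in shWNK1 cells, against 38.4 and 36.2 CPM in NS cells (log2 -0.88, SE 0.112, edgeR adjusted p = 1.2e-07). YY1 had 124.0 and 121.8 CPM in shWNK1 cells, against 191.3 and 191.6 CPM in NS cells (log2 -0.64, SE 0.063, edgeR adjusted p = 8.3e-10). TFAM (log2 -0.58) and NRF1 (log2 -0.50, edgeR adjusted p = 0.0013; 0.0675 without shWNK1 replicate 2) fell too. The nuclear receptor ESRRA rose, with 168.2 and 173.4 CPM in shWNK1 cells, against 128.2 and 136.7 CPM in NS cells (log2 0.37, SE 0.065, edgeR adjusted p = 2.6e-05). The coactivator PPARGC1B was not called (log2 -0.19; adjusted p = 0.0087 without NS replicate 2), and PPARGC1A had at most 8 counts in any library.

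Promoter sequences were searched for the motifs of these factors because these motifs are known from promoters of respiratory chain genes. The RefSeq promoter table (GRCh38.p14, 250 bases before to 50 after the start) held 87 of the 109 members. The NRF1 motif, whose 10 letters are the capitals printed below and are their own reverse complement, was in 5 of 87 member promoters (5.75%), beside 1.24% of all promoters in the table. The ETS motif CCGGAAG, bound by GABPA, was on either strand in 23 (26.4%), beside 10.3% of all promoters, and the YY1 motif AAGATGGCG in 9 (10.3%), beside 1.75%. The end of the ETS motif and the start of the YY1 motif share the letters AAG, so matches to both can overlap. Among promoters of all tested genes the shares were 2.46%, 19.8% and 4.03%. Among members that fell, 1, 7 and 2 of 25 held the NRF1, ETS and YY1 motifs, and among members not called 3, 16 and 6 of 53 did. Of the 3 risen members in the table, NDUFAF5 held the NRF1 motif. The 5 NRF1 matches are printed to show how alike they are, with the motif in capitals, 5′ to 3′ on the strand of the gene.
NDUFAF5, which rose, chr20:13785016-13785041, plus strand: ccgcgctgGCGCATGCGCacaaaaag
SDHD, which fell, chr11:112086755-112086780, plus strand: ctgtgtttGCGCATGCGCgacgggtg
NDUFA8, not called, chr9:122159766-122159791, minus strand: tgccggatGCGCATGCGCaggcgccg
NDUFB4, not called, chr3:120596169-120596194, plus strand: agcacttcGCGCATGCGCatatcacc
ATP5F1C, not called, chr10:7788147-7788172, plus strand: gagcttcgGCGCATGCGCgctgaggc
The first base of the motif lay at -4 from the start site in NDUFAF5 and NDUFA8, at -22 in ATP5F1C, at -110 in SDHD and at -159 in NDUFB4. The same letters stood in the promoters of a member that rose, a member that fell and 3 that were not called.

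The 3′ UTRs of GENCODE 29 were searched on the transcript strand for the word AGTATC, whose share over all tested genes differed with the call: 31.5% of genes that fell, 18.1% of those not called and 15.6% of those that rose. Among the members it was in 3 of the 31 that fell (9.68%), 8 of the 63 not called (12.7%) and none of the 5 that rose. The falling members have short 3′ UTRs, with a median of 196 bases against 1149 bases for all falling genes. The word was taken from earlier results on these libraries because its share moved with the calls, so the shares over all genes are not independent evidence. The 3 carriers that fell were NDUFAB1, ATP5F1E and SDHC. The NDUFAB1 word follows the stop codon directly in a 3′ UTR of 413 bases, and ATP5F1E, the epsilon subunit of the F1 head, has 2 words in 3378 bases. SDHC has 3 words in an annotated 3′ UTR of 12907 bases, and NDUFS1, which was not called, has 3 in 9368 bases. These annotated 3′ UTRs are longer than the median coding transcripts, which have 460 bases for SDHC and 2394 bases for NDUFS1. The same holds for ATP5F1E, with a median coding transcript of 1878 bases, but not for NDUFAB1. Whether the transcripts present in these cells carry the word was not tested. The sites of NDUFAB1, which has the smallest p of all members, and of ATP5F1E are shown, with the word in capitals, 5′ to 3′ on the transcript strand (GRCh38).
NDUFAB1, chr16:23582266-23582283, minus strand: AGTATCaggtaaatagac
ATP5F1E, chr20:59027579-59027608, minus strand: aaggtactaggaAGTATCctccattacagg
ATP5F1E, chr20:59026936-59026965, minus strand: accaacttaatgAGTATCccactaattagt
ATP5F1E had 80.2 and 80.5 CPM in shWNK1 cells, against 92.4 and 129 CPM in NS cells (log2 -0.46, SE 0.128, edgeR adjusted p = 0.0164), with DESeq2 at an adjusted p of 0.128. It shares 32.4% of its main transcript with TUBB1.

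The 10 members that were not tested had at most 8 counts in any library. They were COX4I2, COX6A2, COX6B2, COX7A1, COX7B2, COX8C, NDUFA7, ATP5MGL and the readthrough genes NDUFC2-KCTD14 and ATP5MF-PTCD1. NDUFA7 had 8 and 4 counts in shWNK1 cells, against 4 and 7 in NS cells. Its main transcript shares 78.7% of its bases with other annotated genes, and the counting gave no reads to stretches that belong to more than 1 gene. The levels of NDUFV2, at 3.33 and 4.38 CPM in shWNK1 cells, against 3.81 and 2.66 CPM in NS cells, and of NDUFA13, at 0.631 and 0.73 CPM in shWNK1 cells, against 0.821 and 1.0 CPM in NS cells, stand under the same limit, with 82.9% and 44.1% of the main transcript shared. Of the 109 members, 37 shared at least 10% of their main transcript with another gene. Named pseudogenes existed for 52 members and held 3412 counts over the 4 libraries, of which all but 663 belonged to SDHA. UQCRHL, a near copy of UQCRH, had 4.59 and 4.38 CPM in shWNK1 cells, against 6.92 and 6.03 CPM in NS cells, while UQCRH had 314.6 and 308.4 CPM in shWNK1 cells, against 312.9 and 391.9 CPM in NS cells. Neither was called with all 4 libraries and the filter on low counts, and UQCRH was called as falling with no such filter (edgeR adjusted p = 0.0147). Without NS replicate 1 UQCRH was at log2 -0.33, and the split of reads between the copies is uncertain.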

How the data were processed

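RNA-seq of 4 JJN3 libraries was read from the deposited table of raw counts per gene. Per the file headers the authors made these counts with featureCounts 2.0.0 on the GENCODE 34 annotation, with a mapping quality minimum of 20 and strand setting 0; the submitters' processing notes name Trimmomatic, STAR and the build hg38. Counting without strand means that reads from overlapping antisense genes cannot be told apart. From the table, 3 broken lines of 1 gene and 45 Y copies of pseudoautosomal genes were left out, which kept 60682 genes, of which 60369 had a symbol. Gene types and lengths came from GENCODE 29.

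Counts were tested in R 4.3.3 with edgeR 4.0.16 (filterByExpr, TMM factors, robust quasi-likelihood fit, 2 residual degrees of freedom, two-sided), adjusted by Benjamini-Hochberg over 14864 genes and called under 0.05. The script was tested on simulated data. CPM used TMM-scaled library sizes, TPM the median length of coding transcripts. Alternatives were RLE and upper-quartile factors, TMM without immunoglobulin and mitochondrially encoded genes, 2 other filters, the replicate block, each library left out, limma-voom (limma 3.58.1), DESeq2 1.42.0 and, added after seeing the data, a loess offset on transcript length. Leaving out a library leaves 1 in its group, which is then assumed to vary like the other group.

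The members and gene lists were chosen with earlier results of these data known. Named members were, per complex, up to 4 called in each direction by smallest p, the 3 with the highest TPM, all called members with an absolute log2 fold change of at least 0.5, paralog groups, ATP5IF1, and the 5 with the largest difference between NS libraries among those with a mean of at least 5 CPM; outside the members, up to 2 called in each direction per list. Genes named beyond this rule were chosen after their values were seen, among them NDUFV1, NDUFS1, SDHA, UQCRFS1, ATP5F1E, LYRM7, NDUFV2, NDUFA13 and the genes whose calls an alternative changed. The result of 1 member that the rule names is not reported here.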

Additional observations from a re-analysis of the deposited data

How the results depend on the processing

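Among the members, 5 rises and 31 falls were called; DESeq2 gave 3 rises and the transcript length offset 9. Leaving out each library in turn gave 2 to 13 rises and 19 to 54 falls, with medians from -0.27 to -0.0308. For complex I the length offset gave 5 rises, 9 falls and a median of -0.0105, and leaving out each library gave 0 to 8 rises, 7 to 20 falls and medians from -0.17 to -0.0065. For complex II there were 2 rises with upper-quartile factors and with the length offset and 0 with DESeq2, and 0 to 2 rises, 1 to 3 falls and medians from -0.18 to -0.0908 with a library left out. For complex III the median was -0.0314 with the length offset, and with a library left out there were 0 to 1 rises, 2 to 8 falls and medians from -0.29 to 0.0028. Complex IV had 2 falls with no filter on low counts, and 1 to 2 rises and 1 to 8 falls with a library left out. Complex V had 1 rise with the length offset and 6 to 15 falls with a library left out. NDUFB9 changed sign to -0.16 without NS replicate 1, against 0.224 without NS replicate 2. The causes were not tested. The replicate block gave 5 rises and 29 falls (all genes 17.1% and 18.9%); NDUFB7 and NDUFS4 lost their calls, and replicate numbers showed no pairing (r = -0.0047 between the groups' replicate differences over 14864 genes). RLE factors, TMM without immunoglobulin and mitochondrially encoded genes, the 1 CPM filter and limma-voom gave 5 rises and 31 falls, and the same 36 genes were shared with these calls. Upper-quartile factors moved the median of all genes to 0.04. With 2 libraries a group, members under 5 CPM rest on few counts.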
